A study of Mus musculus with 24 samples.

Results

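The paraoxonases and the genes that build, load and take up high-density lipoprotein (HDL) were followed as 10 named genes, Pon1, Pon2, Pon3, Apoa1, Apoa2, Apom, Lcat, Pltp, Scarb1 and Abca1. They were found by gene symbol among the 14293 rows of the expression table, and all 10 had 1 row each. RNA of mouse NASH liver (nonalcoholic steatohepatitis, a fatty liver with inflammation and scarring) was sequenced in 8 samples given vutiglabridin, 8 given semaglutide and 8 given vehicle. Vutiglabridin is a synthetic relative of the licorice flavonoid glabridin that the series title presents as a paraoxonase-2 agonist, and semaglutide is an agonist of the receptor of the gut hormone glucagon-like peptide. The labels give neither the disease model, diet, strain, sex and age nor the dose, route and duration of either drug, and they do not say whether the 8 samples of a group are separate animals. The p-values below therefore stand only for the scatter among these samples, part of which could be technical.

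HDL carries cholesterol from tissues back to the liver. Hepatocytes secrete its main protein, apolipoprotein A-I, which takes up phospholipid and cholesterol through the transporter ABCA1. The enzyme LCAT esterifies that cholesterol, the transfer protein PLTP remodels the particle, and the receptor encoded by Scarb1 takes up the ester in the liver. Paraoxonases are lactone-cleaving, antioxidant enzymes: PON1 is secreted by the liver and rides on HDL, while PON2 stays inside cells in membranes.

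Expression is given as FPKM, the authors' fragment counts scaled by transcript length and by library size, which allows levels of different genes to be set side by side. All 10 genes passed the filter of at least 0.5 FPKM in at least 8 samples, as did 11562 genes in all. Differences are on the log2(FPKM + 1) scale from 1 limma fit to all 24 samples, with p-values adjusted by the Benjamini-Hochberg method over the 11562 genes of each comparison and a threshold of 0.05. Both drugs were set against the same 8 vehicle samples, so their comparisons with vehicle are not independent.

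The libraries held 5.98 to 15.3 M (mega) fragments in the vutiglabridin group, 9.32 to 12.4 M in the semaglutide group and 11.96 to 19.9 M in the vehicle group, as implied by the steps between low FPKM values, which makes these depths approximate. At that depth even Pon2, the lowest of the 10 genes, rested on about 329 to 889 fragments per vutiglabridin library, 535 to 934 per semaglutide library and 676 to 1258 per vehicle library. These counts use the joined length of all Pon2 exons (7339 bp), so they are too high where shorter transcripts set the FPKM. Every one of the 114344 cells of the semaglutide columns ends in a space and none of the others do, so a separate handling of these samples cannot be told apart from the drug. Markers of hepatocytes were abundant in every library, with the sum of 7 markers at 29989 to 44860 FPKM in vutiglabridin, 30920 to 42073 in semaglutide and 28253 to 34094 in vehicle samples, which fits the labelled tissue. Of these 7 markers, 3 were higher (Cps1, Fgb and Serpina1c) and 0 lower in vutiglabridin than in vehicle samples. In semaglutide samples 4 were higher (Alb, Apob, Cps1 and Fgb) and 0 lower than in vehicle samples. Of all genes tested, 6.53% were higher under vutiglabridin and 14.3% under semaglutide. Ahsg and Ttr passed under neither drug. Markers of stellate cells and myofibroblasts, which make scar matrix, were lower in 3 of 8 under vutiglabridin (Col1a1, Col3a1 and Pdgfrb). Under semaglutide 4 of 8 were lower (Acta2, Col1a1, Col3a1 and Dcn). Of all genes tested, 8.78% and 12.7% were lower in the same order. Lrat, Des and Reln passed under neither drug. The sums were 75.8 to 124 FPKM in vutiglabridin, 78.0 to 116 FPKM in semaglutide and 122 to 174 FPKM in vehicle samples. Much of each sum was Dcn, which averaged 57.5, 50.3 and 65.7 FPKM in these 3 groups. Dcn did not pass for vutiglabridin minus vehicle (limma adjusted p = 0.110). The part of these shifts in the values of the HDL genes was not tested. In bulk tissue, fewer cells of a type and less RNA per cell cannot be told apart.

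Vutiglabridin samples had more Apom, Pon1 and Lcat RNA than vehicle samples, by 59.8%, 27.3% and 28.9% of the vehicle mean. Semaglutide samples had more Abca1, Apom, Apoa1, Lcat and Pon3 RNA than vehicle samples, by 62.4%, 41.4%, 35.7%, 32.3% and 26.0%. Abca1 and Pon3 were lower in vutiglabridin than in semaglutide samples, and none of the 10 genes was higher. Pon2, Apoa2, Pltp and Scarb1 passed the threshold in none of the 3 comparisons.

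Of the 10 genes, 3 were therefore higher and 0 lower in vutiglabridin than in vehicle samples, while 6.53% of all genes tested were higher. Their median log2 change was 0.24, beside 0.01 over all genes. It was 0.08 beside 0.02 after quantile normalization, and 0.08 beside -0.13 after rescaling to equal totals per library (TPM). Against vehicle, semaglutide gave 5 higher and 0 lower, with a median of 0.36 beside -0.01 over all genes, where 14.3% of all genes were higher. Vutiglabridin minus semaglutide gave 0 higher and 2 lower, with a median of -0.13 beside 0.01 over all genes, where 12.6% of all genes were lower. The filled and open points of the plot of changes give the same counts gene by gene.

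**Figure D1:**
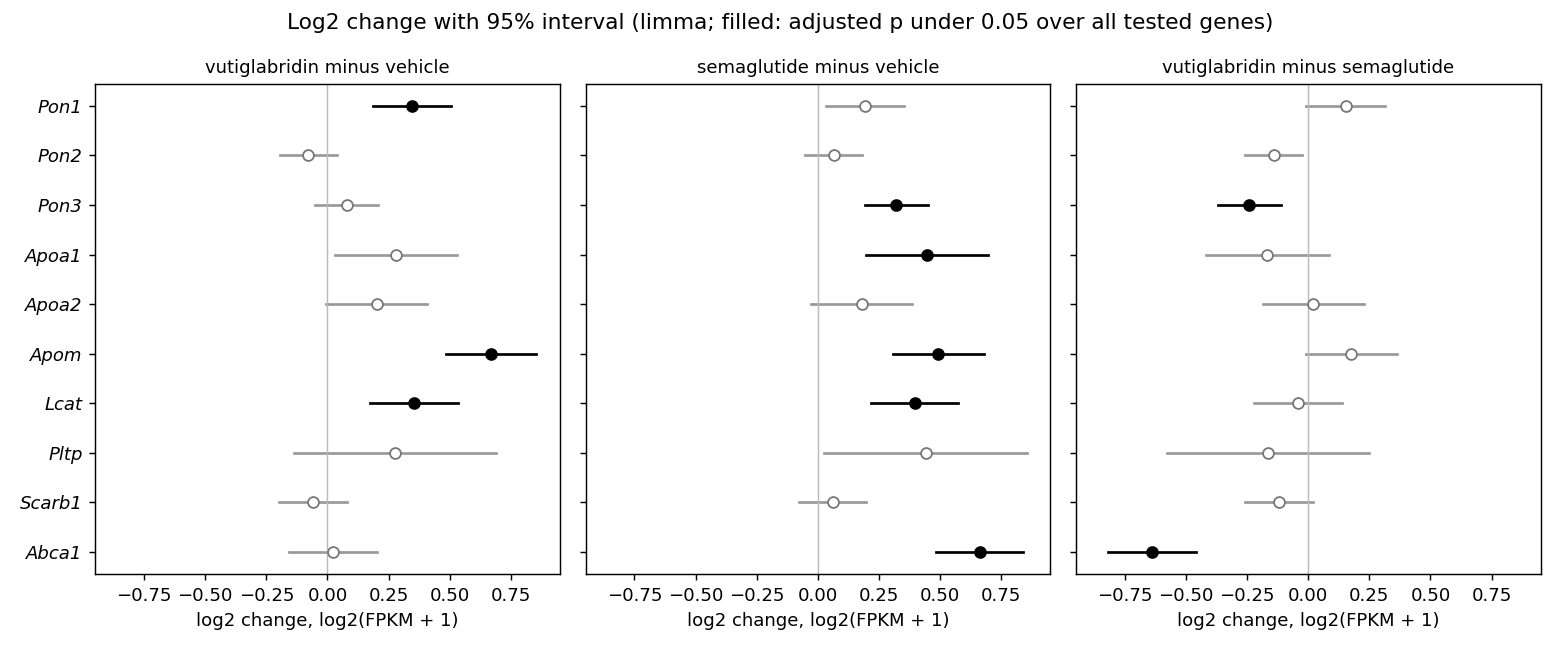
Log2 change of each of the 10 genes (horizontal axis, log2(FPKM + 1) scale) with its 95% interval in the 3 comparisons, from limma. Filled points have an adjusted p under 0.05 over 11562 genes. Filled points are 3 for vutiglabridin minus vehicle, 5 for semaglutide minus vehicle and 2, both below 0, for vutiglabridin minus semaglutide.

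The levels spanned about 3 orders of magnitude. Apoa2 ranked 3 or 4 and Apoa1 ranked 4 to 7 among all genes of every library, and the 2 together made up 3.53 to 4.80% of the FPKM total in vutiglabridin, 3.98 to 5.93% in semaglutide and 3.47 to 4.61% in vehicle libraries. Lcat and Pon1 followed at about the same level with overlapping values in every group, then Apom, Pltp and Scarb1. Pon3 and Abca1 were next, and Pon2 was the lowest in all 3 groups. The plot of levels shows each sample.

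**Figure D2:**
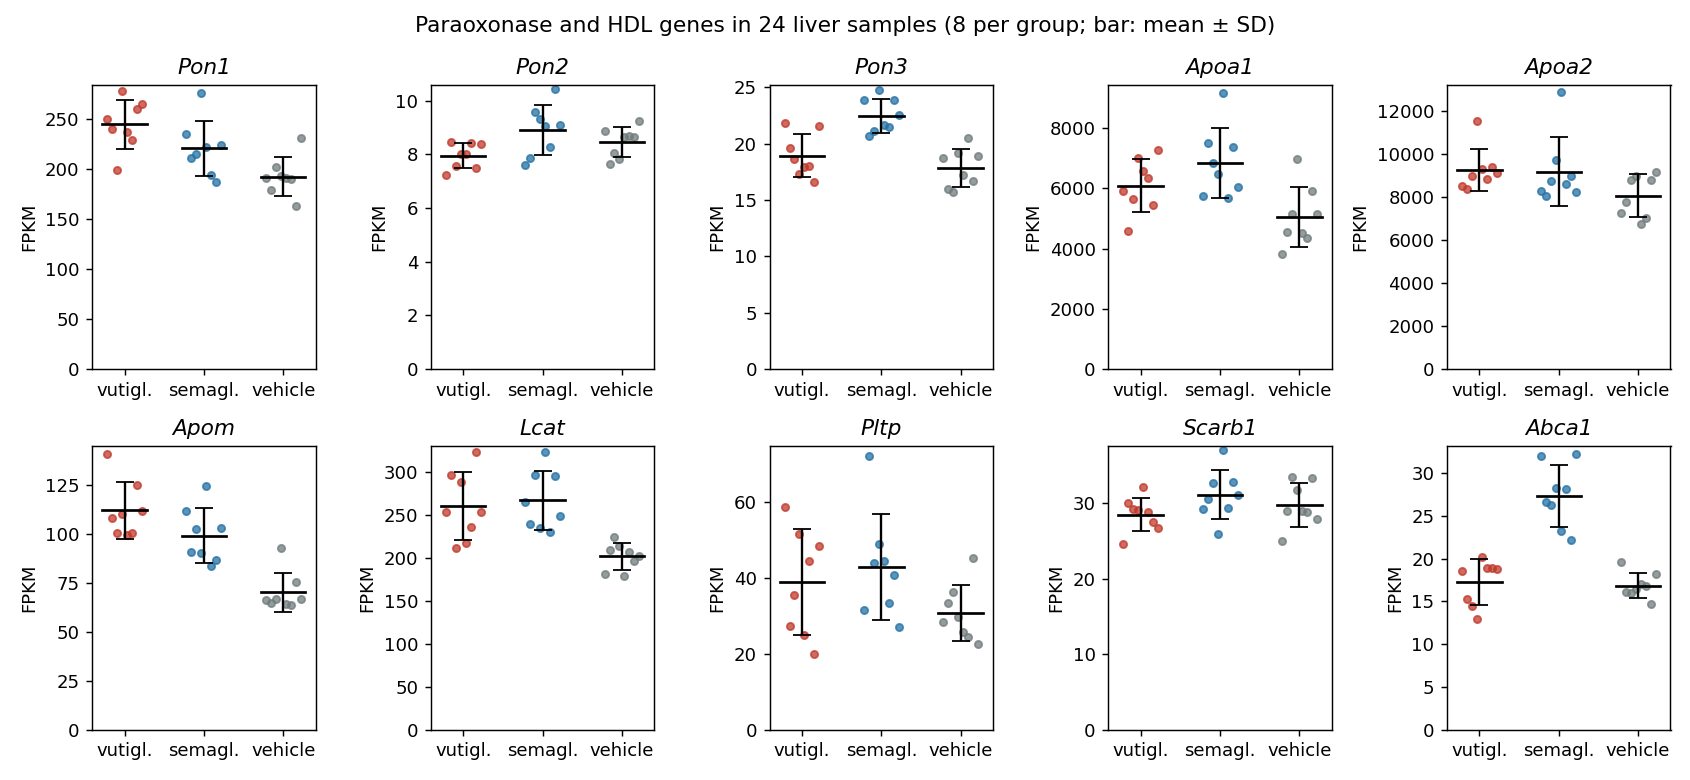
FPKM of the 10 genes in each of the 8 samples per group (points), with the mean and SD (bars); vertical axes are linear, start at 0 and differ between genes. Vutiglabridin and vehicle points do not overlap for Apom, and semaglutide and vehicle points do not overlap for Pon3, Lcat and Abca1.

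The 3 paraoxonase genes lie side by side on the minus strand of chromosome 6 (GRCm38, GENCODE M21). Pon1 covers 5168090 to 5193946, Pon3 follows at 5220852 to 5256286, and Pon2 ends the row at 5264147 to 5298455. Their promoters are shown because Pon1 passed the test under vutiglabridin, Pon3 under semaglutide and Pon2 under neither, and those of Abca1 and Apom because these had the largest changes among the 10 genes. The sequences are from RefSeq (GRCm38.p6) and run from 250 bases before to 50 after the annotated start on the minus strand; 9 of the 10 genes were matched in that table of 32851 promoters. Capitals mark exact matches, on either strand, to the TATA motif (letters TATAAA), the CCAAT box, the GC box (letters GGGCGG), the E-box (letters CACGTG) or the nuclear receptor half-site (letters AGGTCA). The 2 CCAAT matches in Pon1 read ATTGG because they lie on the other strand, as does the half-site of Pon3, which reads TGACCT. The RefSeq starts of Pon2, Pon3 and Apom lie downstream of the GENCODE starts, and the Apom window lies almost wholly inside the gene as GENCODE places it, so the bases upstream of its GENCODE start were not searched.
Pon1 (chr6:5193897-5194196): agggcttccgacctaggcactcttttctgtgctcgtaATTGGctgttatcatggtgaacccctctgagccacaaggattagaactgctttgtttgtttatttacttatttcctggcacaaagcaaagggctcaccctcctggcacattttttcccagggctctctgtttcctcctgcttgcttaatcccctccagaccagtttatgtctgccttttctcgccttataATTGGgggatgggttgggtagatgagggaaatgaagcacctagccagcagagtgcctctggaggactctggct
Pon3 (chr6:5256184-5256483): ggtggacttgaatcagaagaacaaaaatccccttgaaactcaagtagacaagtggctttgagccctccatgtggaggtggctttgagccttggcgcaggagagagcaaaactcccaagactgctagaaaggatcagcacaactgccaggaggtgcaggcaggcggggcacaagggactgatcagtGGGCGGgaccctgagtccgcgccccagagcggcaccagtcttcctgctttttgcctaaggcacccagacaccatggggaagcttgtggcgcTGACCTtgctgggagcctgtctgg
Pon2 (chr6:5298291-5298590): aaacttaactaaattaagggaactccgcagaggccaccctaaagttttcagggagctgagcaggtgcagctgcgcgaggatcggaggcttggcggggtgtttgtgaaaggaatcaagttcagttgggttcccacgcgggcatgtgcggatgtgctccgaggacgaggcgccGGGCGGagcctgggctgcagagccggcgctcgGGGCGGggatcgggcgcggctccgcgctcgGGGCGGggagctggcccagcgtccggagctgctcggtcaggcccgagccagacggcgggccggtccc
Abca1 (chr4:53159846-53160145): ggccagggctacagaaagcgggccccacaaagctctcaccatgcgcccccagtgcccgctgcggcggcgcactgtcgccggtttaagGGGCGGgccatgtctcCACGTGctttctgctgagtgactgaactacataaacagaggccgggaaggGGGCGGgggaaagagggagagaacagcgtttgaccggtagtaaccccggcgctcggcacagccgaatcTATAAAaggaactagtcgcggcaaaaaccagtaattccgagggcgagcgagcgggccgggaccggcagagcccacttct
Apom (chr17:35131752-35132051): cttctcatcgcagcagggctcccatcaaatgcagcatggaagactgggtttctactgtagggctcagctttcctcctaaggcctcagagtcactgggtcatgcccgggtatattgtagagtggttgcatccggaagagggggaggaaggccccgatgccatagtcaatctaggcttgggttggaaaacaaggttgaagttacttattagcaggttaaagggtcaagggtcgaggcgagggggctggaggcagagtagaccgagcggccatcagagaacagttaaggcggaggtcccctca

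The 3 paraoxonase promoters differ in base composition. The Pon2 window has 67.7% GC and 31 CpG dinucleotides, the Pon3 window 57.7% and 7, and the Pon1 window 49.3% and 3, beside a median of 52.7% GC over all promoters. Of the 5 motifs, Pon1 holds the CCAAT box only, Pon2 holds the GC box only, and Pon3 holds a GC box and a half-site after its start. Abca1 (62.7% GC, 26 CpG) holds a TATA box, GC boxes and an E-box, and the Apom window (54.7% GC, 9 CpG) holds none of the 5 motifs. These motifs are common, since 13.6% of all promoters hold TATAAA, 37.4% CCAAT, 35.7% GGGCGG, 7.15% CACGTG and 16.3% AGGTCA, and the letters alone mark no bound site.

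Pon1, which encodes the secreted paraoxonase of HDL, was highest in the vutiglabridin group. Its lowest, median and highest values were 199, 245 and 278 FPKM in vutiglabridin, 187, 218 and 276 FPKM in semaglutide, and 163, 191 and 230.4 FPKM in vehicle samples. All 8 vutiglabridin samples lay above the vehicle mean and 6 lay above every vehicle sample, so the groups overlapped only in their edges. The mean was 245 ± 24.5 FPKM in vutiglabridin and 192 ± 19.3 FPKM in vehicle samples (SD, n = 8 each), which is a log2 difference of 0.35 ± 0.08 (SE; limma adjusted p = 0.00373). For semaglutide, with a mean of 220.3 ± 27.5 FPKM, the change against vehicle was 0.19 (95% interval 0.03 to 0.35; limma adjusted p = 0.0663), which did not pass. The 2 drugs did not differ past the threshold for Pon1, at 0.15 (interval -0.01 to 0.31; limma adjusted p = 0.155). The call against vehicle depended on the scaling: after quantile normalization the vutiglabridin change was 0.16 (limma adjusted p = 0.0950) and the semaglutide change 0.20 (limma adjusted p = 0.0201).

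Pon2 encodes the intracellular paraoxonase that the series title names as the target of vutiglabridin. The lowest, median and highest Pon2 values were 7.23, 8.02 and 8.48 FPKM in vutiglabridin, 7.60, 9.08 and 10.4 FPKM in semaglutide, and 7.63, 8.63 and 9.26 FPKM in vehicle samples. The 3 groups overlapped, with 3 of the 8 vutiglabridin samples below every vehicle sample, and 3 of the 8 below every semaglutide sample. The change of vutiglabridin against vehicle was -0.08 (interval -0.19 to 0.04; limma adjusted p = 0.390), which leaves out a rise of the size seen for Pon1. Semaglutide minus vehicle was 0.06 (interval -0.05 to 0.18; limma adjusted p = 0.427). Between the drugs Pon2 was at -0.14 (interval -0.26 to -0.03; limma adjusted p = 0.0652), with all 8 vutiglabridin samples below the semaglutide mean. RNA level is no measure of the activity of the enzyme, which was not measured here.

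The Pon2 values rested on scaling too. Rescaled to TPM, the change was -0.24 for vutiglabridin minus vehicle (limma adjusted p = 0.0133) and -0.25 for vutiglabridin minus semaglutide (limma adjusted p = 0.00840). TPM moved the median change of all genes to -0.13 for vutiglabridin minus vehicle, and relative to that median Pon2 was at -0.11. For vutiglabridin minus semaglutide Pon2 was at -0.17 relative to the median of all genes. With the trends on GC content and on exon length taken out of each library, vutiglabridin minus semaglutide was 0.01 (limma adjusted p = 0.942). After quantile normalization it was -0.16 (limma adjusted p = 0.0419).

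Pon3, the other lactonase of the family, moved under semaglutide. Pon3 had 16.6, 18.3 and 21.8 FPKM as lowest, median and highest value in vutiglabridin, 20.7, 22.1 and 24.8 FPKM in semaglutide, and 15.7, 18.0 and 20.5 FPKM in vehicle samples. Every semaglutide sample lay above every vehicle sample, and 6 of the 8 vutiglabridin samples lay below every semaglutide sample. Mean levels were 22.5 ± 1.51 FPKM in semaglutide and 17.9 ± 1.70 FPKM in vehicle samples (SD, n = 8 each), which is a log2 difference of 0.32 ± 0.06 (SE; limma adjusted p = 0.000482). Vutiglabridin minus vehicle was 0.08 (interval -0.05 to 0.21; limma adjusted p = 0.440). The difference between the drugs was -0.24 ± 0.06 (SE; limma adjusted p = 0.00635), and it passed in 14 of 14 alternative settings, as did the semaglutide change.

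A ratio of 2 genes in the same library does not change when that library is multiplied by 1 factor, as TPM does, though quantile normalization and the removal of GC and length trends can change it. The Pon1:Pon2 ratio had a lowest, median and highest value of 26.3, 30.6 and 34.6 in vutiglabridin, 17.9, 24.5 and 30.9 in semaglutide, and 18.9, 22.7 and 25.04 in vehicle samples. All 8 vutiglabridin samples and 3 of the 8 semaglutide samples exceeded every vehicle sample. Pon1:Pon3 was 10.7, 12.5 and 16.1 in vutiglabridin, 7.82, 10.05 and 11.1 in semaglutide, and 9.26, 10.6 and 12.8 in vehicle samples, with 7 of 8 vutiglabridin samples above every semaglutide sample. Pon3:Pon2 was 2.14, 2.28 and 3.01 in vutiglabridin, 2.20, 2.54 and 3.14 in semaglutide, and 1.94, 2.07 and 2.44 in vehicle samples, and these 3 ranges overlapped. These ratios were chosen after the data were seen and carry no test; they show unequal change and not which gene of a pair moved.

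**Figure D3:**
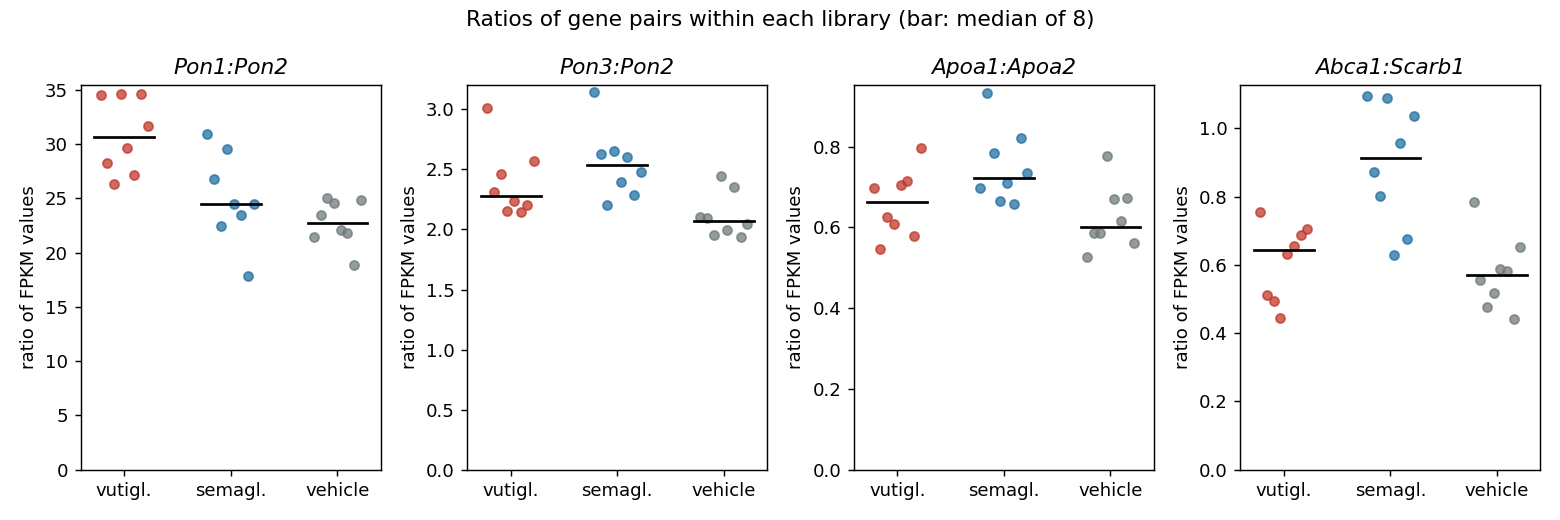
Ratios of FPKM values of gene pairs within each library (vertical axes from 0), 8 samples per group, with the median as a bar. All 8 vutiglabridin points of Pon1:Pon2 lie above the vehicle points, and 6 of 8 semaglutide points of Abca1:Scarb1 lie above every vehicle point.

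Within groups the paraoxonases did not track each other in a way these samples could show. Over the 8 samples of a group, Pearson's r of the 3 paraoxonase pairs was between -0.14 and 0.49, and the lowest exact permutation p among those 9 relations was 0.213 (2-sided). Spearman's rho was between -0.21 and 0.57 with a lowest exact permutation p of 0.151, and r without the 2 farthest samples was between -0.34 and 0.69. Including Apoa1 with Apoa2, 12 relations were computed, and none passed after Benjamini-Hochberg adjustment.

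Apoa1 and Apoa2 encode the 2 main proteins of HDL. Apoa1 (chromosome 9, 46228580 to 46230466, plus strand) had a lowest, median and highest value of 4595, 6129 and 7262 FPKM in vutiglabridin, 5679, 6659 and 9167 FPKM in semaglutide, and 3822, 4853 and 6981 FPKM in vehicle samples. The groups overlapped, and all 8 semaglutide samples exceeded the vehicle mean. Mean Apoa1 was 6855 ± 1162 FPKM in semaglutide and 5052 ± 1004 FPKM in vehicle samples (SD, n = 8 each), which is a log2 difference of 0.45 ± 0.12 (SE; limma adjusted p = 0.00789). It was 0.28 for vutiglabridin minus vehicle (interval 0.03 to 0.53; limma adjusted p = 0.123), with 7 of 8 samples above the vehicle mean, and -0.17 for vutiglabridin minus semaglutide (interval -0.42 to 0.08; limma adjusted p = 0.333). Quantile normalization ended the semaglutide call, at 0.17 (limma adjusted p = 0.275). That setting gives each rank the same value in every library. Apoa1 ranked 4 to 7 in every library, which limits the change it can show there. Without vehicle replicate 4, the highest vehicle sample, the vutiglabridin change was 0.35 (limma adjusted p = 0.0425).

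Apoa2 (chromosome 1, 171225054 to 171226379, plus strand) did not pass in any comparison. From lowest over median to highest, Apoa2 was at 8389.6, 9049 and 11516 FPKM in vutiglabridin, 8045, 8681 and 12907 FPKM in semaglutide, and 6728, 8277 and 9179 FPKM in vehicle samples. A single sample reached far above the others in each drug group. The changes were 0.20 for vutiglabridin minus vehicle (interval -0.01 to 0.41; limma adjusted p = 0.188), 0.18 for semaglutide minus vehicle (interval -0.03 to 0.39; limma adjusted p = 0.191) and 0.02 for vutiglabridin minus semaglutide (interval -0.19 to 0.23; limma adjusted p = 0.906). After removal of GC and length trends the semaglutide change was 0.31 (limma adjusted p = 0.00202). Quantile normalization gave 0, but it sets each rank to the same value in every library. Apoa2 ranked 3 or 4 in every library, so that setting could hardly show a change of this gene.

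The Apoa1:Apoa2 ratio had a lowest, median and highest value of 0.548, 0.662 and 0.797 in vutiglabridin, 0.659, 0.722 and 0.932 in semaglutide, and 0.526, 0.601 and 0.776 in vehicle samples. The ranges overlapped, and 5 of the 8 vehicle samples lay below every semaglutide sample. Among vehicle samples r of Apoa1 with Apoa2 was 0.77 (2-sided exact permutation p = 0.0219, adjusted over 12 relations 0.263). Spearman's rho was 0.83 (exact permutation p = 0.0154, adjusted 0.185), so neither passed after adjustment. For these vehicle samples r was 0.82 without the 2 samples farthest from the Apoa1 median, and r and rho were both 0.69 with TPM. Among vutiglabridin samples r was 0.55 (exact permutation p = 0.158, adjusted 0.577), and rho 0.48 (exact permutation p = 0.243, adjusted 0.741), with r = 0.62 without the 2 farthest samples. In the semaglutide group r was 0.72 (exact permutation p = 0.0532, adjusted 0.319) with rho 0.33 (exact permutation p = 0.428, adjusted 0.935), and r = 0.10 without the 2 farthest samples, so that relation rested on them.

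Apom, the minor HDL apolipoprotein that binds a signalling sphingolipid, changed most under vutiglabridin. It lies on chromosome 17 (35128997 to 35132050, minus strand). Lowest, median and highest Apom values were 99.6, 109 and 141 FPKM in vutiglabridin, 83.6, 96.9 and 125 FPKM in semaglutide, and 63.7, 66.7 and 93.2 FPKM in vehicle samples. The vutiglabridin group lay wholly above the vehicle group, and it was the only 1 of the 10 genes to do so, beside 0.77% of all genes tested. Mean Apom was 112 ± 14.5 FPKM in vutiglabridin, 99.3 ± 14.1 FPKM in semaglutide and 70.2 ± 10.01 FPKM in vehicle samples (SD, n = 8 each). The log2 change was 0.67 ± 0.09 for vutiglabridin (SE; limma adjusted p = 3.79e-05) and 0.49 ± 0.09 for semaglutide against vehicle (SE; limma adjusted p = 0.000231). Over 14 alternative settings the vutiglabridin change ran from 0.51 to 0.68 and passed in all 14. Between the drugs it was 0.18 (interval -0.01 to 0.36; limma adjusted p = 0.153), although all 8 vutiglabridin samples exceeded the semaglutide mean.

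The Apom:Apoa1 ratio within a library had a lowest, median and highest value of 0.0152, 0.0169 and 0.0238 in vutiglabridin, 0.0117, 0.0144 and 0.0195 in semaglutide, and 0.0128, 0.0138 and 0.0174 in vehicle samples. Of the 8 vutiglabridin samples, 4 exceeded every vehicle sample, as did 1 of the 8 semaglutide samples. The ranges of all 3 groups overlapped.

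Lcat encodes the plasma enzyme that esterifies HDL cholesterol, and it was higher under both drugs. Across samples, the lowest, median and highest values were 211, 254 and 323 FPKM in vutiglabridin, 230.5, 257 and 323 FPKM in semaglutide, and 179, 205 and 224 FPKM in vehicle samples. All semaglutide samples and 6 of the 8 vutiglabridin samples lay above every vehicle sample. Mean Lcat was 259.8 ± 39.6 FPKM in vutiglabridin, 267 ± 34.3 FPKM in semaglutide and 202 ± 15.6 FPKM in vehicle samples (SD, n = 8 each). The log2 change was 0.35 ± 0.09 for vutiglabridin (SE; limma adjusted p = 0.00683) and 0.40 ± 0.09 for semaglutide against vehicle (SE; limma adjusted p = 0.00145). Vutiglabridin minus semaglutide was -0.04 (interval -0.22 to 0.14; limma adjusted p = 0.767). Quantile normalization ended the vutiglabridin call, at 0.17 (limma adjusted p = 0.105), and gave -0.22 between the drugs (limma adjusted p = 0.0260). Lcat (chromosome 8, 105939551 to 105943382, minus strand) overlaps the antisense gene Gm16156, and whether strand was used in counting is not given in the sources used here.

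Pltp encodes the phospholipid transfer protein, and it varied most between samples of a group. Its lowest, median and highest values were 19.98, 39.9 and 58.5 FPKM in vutiglabridin, 27.1, 42.3 and 72.1 FPKM in semaglutide, and 22.6, 29.0 and 45.1 FPKM in vehicle samples. The coefficient of variation was 36.0%, 32.7% and 24.01% in these 3 groups, while it was between 5.91% and 19.9% for the other 9 genes. Changes were 0.28 for vutiglabridin minus vehicle (interval -0.14 to 0.69; limma adjusted p = 0.396), 0.44 for semaglutide minus vehicle (interval 0.03 to 0.85; limma adjusted p = 0.106) and -0.16 for vutiglabridin minus semaglutide (interval -0.58 to 0.25; limma adjusted p = 0.588). The semaglutide change of Pltp was thus no smaller than that of Lcat, but its interval was wider. The span of Pltp (chromosome 2, 164839518 to 164857711, minus strand) overlaps that of Ctsa on the opposite strand, so its values are uncertain in the same way. Whether their exons overlap was not examined.

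Abca1 and Scarb1 stand at the ends of HDL cholesterol transport, export to the nascent particle and uptake from the mature one. Abca1 (chromosome 4, 53030787 to 53159895, minus strand) had a lowest, median and highest value of 12.9, 18.7 and 20.2 FPKM in vutiglabridin, 22.2, 27.4 and 32.2 FPKM in semaglutide, and 14.7, 16.6 and 19.6 FPKM in vehicle samples. The semaglutide group lay wholly above both others, while vutiglabridin and vehicle samples overlapped. Mean Abca1 was 17.3 ± 2.65 FPKM in vutiglabridin, 27.4 ± 3.63 FPKM in semaglutide and 16.9 ± 1.48 FPKM in vehicle samples (SD, n = 8 each). The log2 change was 0.66 ± 0.09 for semaglutide minus vehicle (SE; limma adjusted p = 5.30e-06) and -0.64 ± 0.09 for vutiglabridin minus semaglutide (SE; limma adjusted p = 1.06e-05), and both passed in 14 of 14 alternative settings. For vutiglabridin minus vehicle it was 0.02 (interval -0.16 to 0.20; limma adjusted p = 0.890).

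Abca1, Pon3 and Lcat were the 3 genes whose semaglutide samples all exceeded the vehicle samples, beside 4.09% of all genes tested. Abca1 was the only 1 whose vutiglabridin samples all lay below the semaglutide samples, beside 2.27% of all genes tested.

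Scarb1, the HDL receptor of the liver, showed no change past the threshold. Scarb1 had a lowest, median and highest value of 24.6, 28.9 and 32.1 FPKM in vutiglabridin, 25.9, 30.9 and 37.0 FPKM in semaglutide, and 25, 28.9 and 33.5 FPKM in vehicle samples. The 3 groups overlapped, and semaglutide replicate 5 was the highest sample of all. Its change was -0.06 for vutiglabridin minus vehicle (interval -0.20 to 0.08; limma adjusted p = 0.614), 0.06 for semaglutide minus vehicle (interval -0.08 to 0.20; limma adjusted p = 0.547) and -0.12 for vutiglabridin minus semaglutide (interval -0.26 to 0.02; limma adjusted p = 0.199). With TPM the first was -0.22 (limma adjusted p = 0.0302), which is -0.09 relative to the median of all genes, and the third was -0.22 (limma adjusted p = 0.0257), or -0.14 relative to that median. In the Abca1:Scarb1 ratio the lowest, median and highest values were 0.445, 0.644 and 0.755 in vutiglabridin, 0.629, 0.913 and 1.09 in semaglutide, and 0.443, 0.569 and 0.784 in vehicle samples. Here 6 of the 8 semaglutide samples exceeded every vehicle sample, and none of the vutiglabridin samples did. Scarb1 (chromosome 5, 125277087 to 125341094, minus strand) and Pon2 each overlap an unconfirmed transcript model, Gm42633 and Gm44424, which makes their values uncertain to that extent.

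The plot of the 5 scalings sets all of these changes side by side. Apom and Abca1 kept their side of the threshold in all 3 comparisons under each scaling shown. Pon3 did so too, with a change against vehicle under vutiglabridin that turned to -0.07 with TPM without passing.

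**Figure D4:**
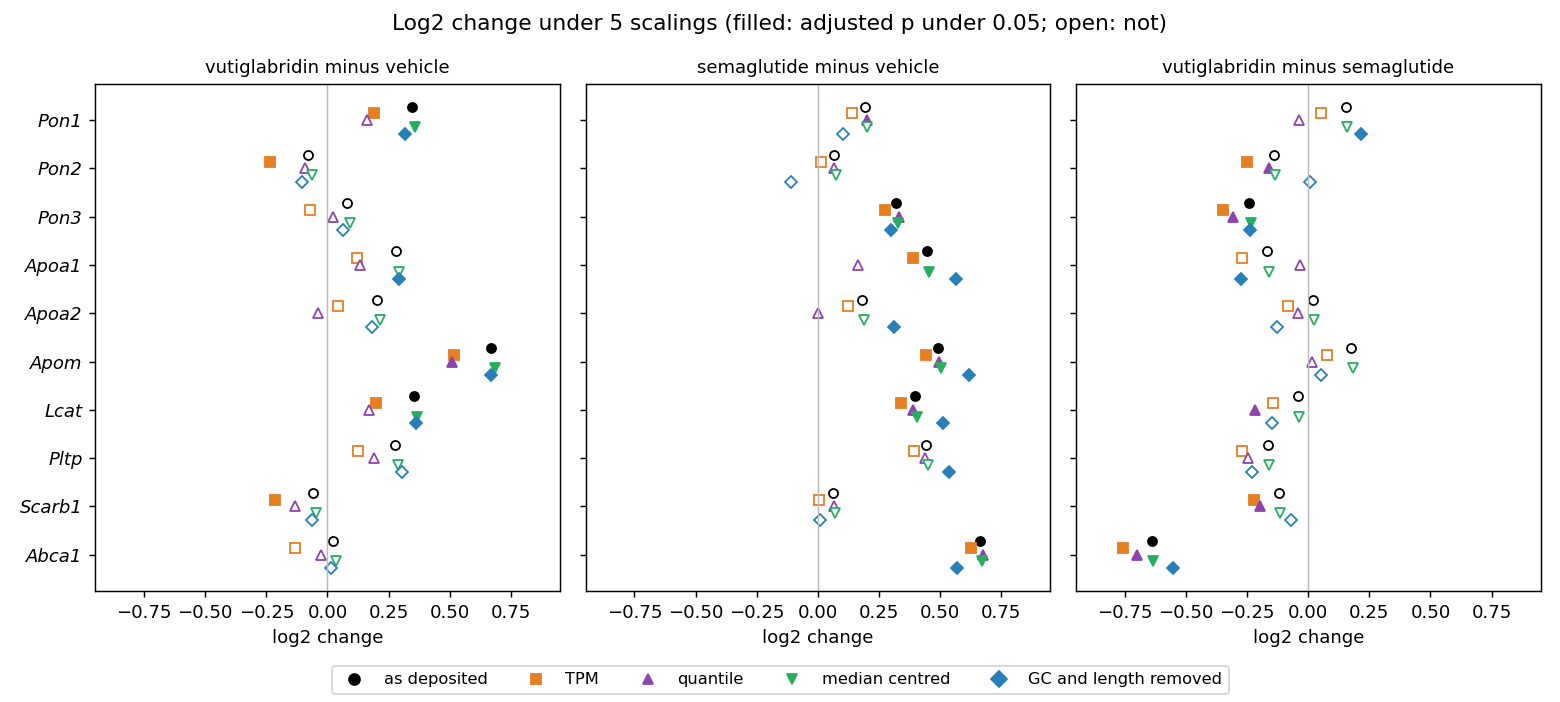
Log2 change of the 10 genes (horizontal axis) in the 3 comparisons under 5 scalings of the libraries, with filled symbols for an adjusted p under 0.05. Semaglutide minus vehicle gives filled symbols for Pon3, Apom, Lcat and Abca1 under every scaling, while Pon1 and Lcat under vutiglabridin are open after quantile normalization (0.16 and 0.17).

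Each gene was also compared with all other tested genes by Pearson's r of the deviations from the group means over the 24 samples, which uses no difference between groups. These values are a description with no test, and all genes share the libraries and their depth. Pon1 was most like Ugt3a2 (0.83), Cyp2c50 (0.82) and Gcdh (0.80), and Pon3 most like Gpn3 (0.78), Secisbp2l (0.73) and Ipo7 (0.71). Pon2 had lower values, with Cmtm4 (0.71), Pex11a (0.69) and Csad (0.69). Neither of the other paraoxonases was among the 3 nearest genes of any paraoxonase, and the 3 pairs had r = 0.25 for Pon1 with Pon3, 0.23 for Pon2 with Pon3 and 0.05 for Pon1 with Pon2.

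Apoa2 was most like Ndufa3 (0.95), Cox6a1 (0.93) and Atp5k (0.92), which encode small subunits of the mitochondrial respiratory chain and ATP synthase. Exon lengths of these 3 genes are 1022, 702 and 616 bp and that of Apoa2 is 537 bp, beside a median of 4335 bp over the tested genes. Abca1, with 10363 bp of exon, had Psd3 (0.87) and Mbnl1 (0.85) among its nearest genes, with 17632 and 18717 bp. The part of exon length in these values was not tested. Apoa1 was most like Acaa1a (0.85), Uqcc3 (0.82) and Ccs (0.82), and Apom most like F2 (0.71), which encodes prothrombin, Vtn (0.69), which encodes vitronectin, and Phb2 (0.69). Lcat was closest to Ung (0.91), Oplah (0.88) and Nfe2l1 (0.86), and Scarb1 to Lims2 (0.82), Zfp444 (0.78) and Ldb1 (0.77). For Pltp the nearest genes were Hcls1 (0.75) and Cd200r4 (0.73), both known from blood cells, and Scap (0.72). Among the 10 genes themselves the highest value was that of Apoa1 with Apoa2 (0.69), and the lowest were those of Pon3 with Scarb1 (-0.49) and Scarb1 with Abca1 (-0.49).

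Other genes of HDL were read from 3 lists. Over all genes tested, 6.53% were higher and 8.78% lower in vutiglabridin than in vehicle samples, 14.3% higher and 12.7% lower in semaglutide than in vehicle samples, and 11.9% higher and 12.6% lower in vutiglabridin than in semaglutide samples. Of 13 tested apolipoproteins, 2 were higher, 1 lower and 10 not past the threshold in vutiglabridin against vehicle (median log2 change 0.15), 1 was higher, 1 lower and 11 not past it in semaglutide against vehicle (median -0.11), and 5 were higher, 0 lower and 8 not past it in vutiglabridin against semaglutide (median 0.20). Among 19 tested genes of remodelling, efflux and uptake the counts were 3 higher, 2 lower and 14 not past it in vutiglabridin against vehicle (median 0.09), 2, 2 and 15 in semaglutide against vehicle (median -0.02), and 4, 1 and 14 in vutiglabridin against semaglutide (median 0.06). Among 11 regulators 4 were higher, 0 lower and 7 not past it in vutiglabridin against vehicle (median 0.16), 3, 1 and 7 in semaglutide against vehicle (median 0.12), and 0, 1 and 10 in vutiglabridin against semaglutide (median 0.07). With TPM the vutiglabridin counts against vehicle became 1 higher and 2 lower apolipoproteins, 0 higher and 3 lower genes of remodelling, and 0 regulators in either direction. In semaglutide against vehicle TPM gave 1 higher and 4 lower apolipoproteins. Quantile normalization gave 0 higher and 2 lower apolipoproteins in vutiglabridin against vehicle, with a median that turned to -0.04, and 1 higher and 1 lower in vutiglabridin against semaglutide.

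Apoa4, an apolipoprotein that mouse liver and intestine make, fell under both drugs. Apoa4 had a lowest, median and highest value of 1244, 1438 and 1779 FPKM in vutiglabridin, 649.6, 1115 and 1395 FPKM in semaglutide, and 1981, 2299 and 3406 FPKM in vehicle samples. Neither drug group overlapped the vehicle group, and the share of all genes that lay wholly below vehicle is not given here. The log2 change was -0.67 ± 0.13 for vutiglabridin (SE; limma adjusted p = 0.000803) and -1.13 ± 0.13 for semaglutide against vehicle (SE; limma adjusted p = 7.79e-07). It was 0.46 ± 0.13 for vutiglabridin minus semaglutide (SE; limma adjusted p = 0.00879), a call that quantile normalization ended, at 0.19 (limma adjusted p = 0.339). Under semaglutide Apoa4 was thus lower while Apoa1, of the same family, was higher.

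Apoh, a plasma glycoprotein that binds anionic phospholipid, averaged 1378 FPKM in vutiglabridin, 1294 FPKM in semaglutide and 1050 FPKM in vehicle samples. Its change was 0.39 ± 0.07 for vutiglabridin (SE; limma adjusted p = 0.000325) and 0.30 ± 0.07 for semaglutide against vehicle (SE; limma adjusted p = 0.00148), and the vutiglabridin call was lost after quantile normalization, at 0.06 (limma adjusted p = 0.466). Abcg1, the transporter that loads mature HDL and is rich in macrophages, had lowest, median and highest values of 1.49, 2.28 and 3.08 FPKM in vutiglabridin, 2.16, 2.54 and 3.31 FPKM in semaglutide, and 2.72, 3.33 and 5.21 FPKM in vehicle samples. It fell by 0.51 on the log2 scale under vutiglabridin (limma adjusted p = 0.00219) and by 0.33 under semaglutide (limma adjusted p = 0.0253), and the semaglutide call was lost without vehicle replicate 3 or 7 or semaglutide replicate 4 or 8 (highest limma adjusted p = 0.0627). Markers of recruited macrophages moved with it: 8 of 8 were lower in vutiglabridin and 6 of 8 in semaglutide than in vehicle samples, with a summed level of 104 to 246 FPKM in vutiglabridin, 133 to 320 FPKM in semaglutide and 216 to 420 FPKM in vehicle samples. Much of that sum was Spp1, a gene that cholangiocytes also express, at 130 ± 48.6 FPKM in vutiglabridin, 196 ± 55.2 FPKM in semaglutide and 238 ± 64.8 FPKM in vehicle samples (SD, n = 8 each), and Spp1 did not pass for semaglutide minus vehicle (limma adjusted p = 0.382). Markers of Kupffer cells and other macrophages were lower in 3 of 8 for each drug, with sums of 86.8 to 232 FPKM in vutiglabridin, 77.8 to 141 FPKM in semaglutide and 119 to 388 FPKM in vehicle samples. Beside both macrophage lists, 8.78% of all genes tested were lower under vutiglabridin and 12.7% under semaglutide. Under vutiglabridin the 3 were the general macrophage genes Adgre1, Cd68 and Csf1r. Clec4f, Timd4, Vsig4, Marco and Cd5l were at 0.18, 0.09, 0.11, 0.66 and -0.32 against vehicle and did not pass. Their limma adjusted p was 0.680, 0.845, 0.880, 0.309 and 0.426. Under semaglutide the 3 lower markers were Cd5l, Cd68 and Csf1r. Clec4f, Timd4, Vsig4, Adgre1 and Marco were at -0.36, -0.11, -0.40, -0.42 and 0.15 against vehicle and did not pass. Their limma adjusted p was 0.284, 0.787, 0.443, 0.0622 and 0.835. No marker of either list was at 0 in all 8 samples of a group, and the part of macrophages in the Abcg1, Abca1 or Pltp values was not tested.

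The called list genes of vutiglabridin minus semaglutide included 2 apolipoproteins that act on lipoprotein lipase. Apoc3, an inhibitor of lipoprotein lipase, averaged 1378 ± 199 FPKM in vutiglabridin and 1023 ± 152 FPKM in semaglutide samples (SD, n = 8 each), which is a log2 difference of 0.43 ± 0.10 (SE; limma adjusted p = 0.00226) that did not pass after quantile normalization (0.19, limma adjusted p = 0.0700). Apoc2, the activator of the same lipase, was at 2.90 ± 0.908 FPKM in vutiglabridin and 1.35 ± 0.632 FPKM in semaglutide samples. That is a change of 0.74 ± 0.18 (SE, limma adjusted p = 0.00382). Apoc2 ran only from 0.53 FPKM in semaglutide to 4.39 FPKM in vutiglabridin samples, while Apoc1 and Apoc4 averaged 3110 and 190 FPKM in vutiglabridin. How reads were divided between Apoc2 and other genes was not examined, so its level is uncertain. Vehicle samples averaged 1162 ± 154 FPKM for Apoc3 and 1.95 ± 0.772 FPKM for Apoc2. Neither gene passed against vehicle under either drug. Saa1 and Saa2, acute-phase apolipoproteins of HDL that are near copies of each other and so uncertain as single genes, differed by 1.23 (limma adjusted p = 0.0388) and 1.31 (limma adjusted p = 0.0358). Against vehicle neither gene passed. Saa1 was at 0.15 for vutiglabridin (limma adjusted p = 0.853) and -1.07 for semaglutide (limma adjusted p = 0.0652). Saa2 was at 0.22 (limma adjusted p = 0.789) and -1.09 (limma adjusted p = 0.0762) in the same order. The Saa1 median was 73.9 FPKM in vutiglabridin, 54.3 FPKM in semaglutide and 106 FPKM in vehicle samples. Vutiglabridin replicate 7, the shallowest library, was the highest sample of both genes, at 528 FPKM for Saa1. Both calls were lost without that sample, without vutiglabridin replicate 2 or 4 and without semaglutide replicate 3, 4, 7 or 8 (highest limma adjusted p = 0.0887 for Saa1 and 0.0839 for Saa2).

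Among the regulators, the sterol sensors that drive Abca1 in many cells, Nr1h2 and Nr1h3, did not pass in any comparison. RNA level is no measure of receptor activity, which was not measured. Nr1h2 changed by 0.16 under vutiglabridin (interval 0.01 to 0.32, limma adjusted p = 0.152). Under semaglutide it changed by 0.04 (interval -0.11 to 0.19, limma adjusted p = 0.744). Rxra, of the same list, was 0.26 higher under vutiglabridin (limma adjusted p = 0.0108) and 0.27 under semaglutide (limma adjusted p = 0.00435). With TPM no regulator passed in vutiglabridin minus vehicle. Nr1h3, the liver X receptor alpha, changed by 0.02 under vutiglabridin (interval -0.13 to 0.18; limma adjusted p = 0.877) and by -0.06 under semaglutide against vehicle (interval -0.21 to 0.10; limma adjusted p = 0.619). Nr5a2, a nuclear receptor of bile acid and cholesterol genes, was 0.28 higher under vutiglabridin (limma adjusted p = 0.0118) and 0.40 higher under semaglutide (limma adjusted p = 0.000253). All its semaglutide samples lay above all vehicle samples, as for 4.09% of all genes tested. Hnf4a, which drives many hepatocyte genes, was 0.33 higher under vutiglabridin (limma adjusted p = 0.0164). With TPM the vutiglabridin changes of Nr5a2 and Hnf4a were 0.14 and 0.17 and did not pass (limma adjusted p = 0.176 and 0.141). Ppara, the receptor that turns on fatty acid oxidation, averaged 37.6 ± 3.38 FPKM in semaglutide and 28.2 ± 4.00 FPKM in vehicle samples (SD, n = 8 each), a change of 0.41 ± 0.09 (SE; limma adjusted p = 0.00132), and Nr0b2, a bile acid-induced corepressor, averaged 27.5 ± 9.86 and 50.6 ± 18.8 FPKM in semaglutide and vehicle samples, a change of -0.84 ± 0.25 (SE; limma adjusted p = 0.0154). Outside the regulators, Lrp1, a receptor for lipoprotein remnants, was 0.48 higher in semaglutide than in vehicle samples (limma adjusted p = 0.000219), and Npc1, which moves cholesterol out of lysosomes, was 0.37 higher (limma adjusted p = 0.000836).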

How the data were processed

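Libraries were made from mRNA with a stranded Illumina kit and read in pairs on a NovaSeq instrument, per the labels' protocols. The deposited table holds FPKM values made by the authors, 1 per gene and sample. The submitters' processing notes list HISAT2, StringTie and DESeq2. Their versions, roles and order, the build and the use of strand are not given in the sources used. FPKM is relative to the library, so abundant genes shift all others. All 14293 rows matched GENCODE M21 on GRCm38, which gave positions.

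Values were taken as log2(FPKM + 1), which understates changes of low genes. Genes reaching 0.5 FPKM in 8 or more samples were fitted with limma 3.58.1 in R 4.3.3 (groups only, mean trend, 2-sided), and Benjamini-Hochberg adjustment ran over 11562 genes per comparison. Levels within groups were related with exact permutation tests (Python 3.11.15). Scripts were tested on simulated data. Alternatives were a pseudocount of 0.1 or 0.5, no filter, a filter on a mean of 1 FPKM, TPM, quantile normalization, median centring, a robust or weighted fit, 2 groups only, a replicate block, removal of GC and length trends (by splines of 5 degrees of freedom, with and without that block) and each sample left out. Added after seeing the data were the omission of 6 rows that share a symbol, and within-library ratios. The 10 genes and all lists were chosen with earlier results of these data known. Besides these genes, up to 8 called list genes with the largest changes per comparison could be named. So could the 3 genes most like each of the 10. The text picks among the list genes, and Nr1h2, Nr1h3 and Rxra were added after their values were seen. A few results are not reported here.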

Additional observations from a re-analysis of the deposited data

Results flagged for a closer look

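In 81 groups of 8 samples (27 genes), 5 had a single sample set apart by a gap that is large against the range of the group; chance gives about 1 in 20 groups. Apoa2 was at 11516 FPKM in vutiglabridin replicate 4, where the next sample was at 9374 FPKM. It was also at 12907 FPKM in semaglutide replicate 5, where the next was at 9709.9 FPKM. Apoc3 was at 1370 FPKM in that same semaglutide sample, and the next was at 1059 FPKM. Apom was at 93.2 FPKM in vehicle replicate 4, where the next was at 75.7 FPKM. Apoa4 was at 3406 FPKM in vehicle replicate 2, and the next sample was at 2393 FPKM.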

How the results depend on the processing

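Over the 10 genes, 3 comparisons and all alternatives, 1096 of 1140 values kept their direction and their side of the threshold, 23 came to pass it, 3 no longer passed and 18 changed sign. The number of the 10 genes called in vutiglabridin minus vehicle was 3, 5 with TPM and 1 after quantile normalization. In vutiglabridin minus semaglutide it was 2, 4 with TPM, 5 after quantile normalization and 4 after removal of GC and length trends. Leaving out 1 sample gave 3 to 4, 5 to 6 and 2 to 3 in vutiglabridin minus vehicle, semaglutide minus vehicle and vutiglabridin minus semaglutide. TPM raised the genes called in vutiglabridin minus vehicle to 2964 from 1770, and moved the share that was higher among called genes to 7.86% from 42.7%, to 36.2% from 52.8% and to 20.8% from 48.5% in the same order. TPM divides each library by its FPKM total, which averaged 368614 in vutiglabridin, 343428 in semaglutide and 330352 in vehicle libraries. With TPM the vutiglabridin changes of Pon1 and Lcat against vehicle were 0.19 and 0.20, down from 0.35 for each. Relative to the median of all genes under TPM they were 0.32 and 0.33. Why the totals differ between groups was not tested.

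Signs turned in these cases, none of them past the threshold. TPM gave -0.0734 for Pon3 and -0.13 for Abca1 in vutiglabridin minus vehicle and -0.0819 for Apoa2 in vutiglabridin minus semaglutide. Quantile normalization gave -0.0406 for Apoa2 and -0.0267 for Abca1 in vutiglabridin minus vehicle, and -0.0373 for Pon1 and -0.0406 for Apoa2 in vutiglabridin minus semaglutide. Both Apoa2 values were nearly set in advance by its rank of 3 or 4 in every library. Removal of GC and length trends gave, with and without the block, -0.11 for Pon2 in semaglutide minus vehicle, and 0.00864 for Pon2 and -0.13 for Apoa2 in vutiglabridin minus semaglutide. With 1 sample left out, Abca1 in vutiglabridin minus vehicle ran from -0.00994 to 0.0771 and Apoa2 in vutiglabridin minus semaglutide from -0.0256 to 0.0927. Among vutiglabridin samples r of Pon1 with Pon3 was -0.21 with TPM, and r of Pon1 with Pon2 was -0.11 with TPM and -0.34 without the 2 farthest samples. Pon1 in semaglutide minus vehicle passed without vehicle replicate 8 or semaglutide replicate 6 or 7 (lowest limma adjusted p = 0.0271), and Pon2 in vutiglabridin minus semaglutide passed without semaglutide replicate 1 or 2 (lowest limma adjusted p = 0.0259). GC and length removal also let Apoa1 pass in vutiglabridin minus vehicle (0.0389) and vutiglabridin minus semaglutide (0.0432), Pltp in semaglutide minus vehicle (0.0354) and Pon1 in vutiglabridin minus semaglutide (0.0282; all limma adjusted p).

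The correlation of same-numbered deviations was over 0.1 in 6 of 8 pairs for vutiglabridin minus vehicle (range -0.12 to 0.28). It was over 0.1 in 2 of 8 pairs for semaglutide minus vehicle (-0.25 to 0.25) and in 3 of 8 for vutiglabridin minus semaglutide (-0.20 to 0.29). In the same order, 2, 1 and 1 of 8 samples correlated best with their own number. Whether the replicate numbers pair the samples was not tested. With the replicate block, 3, 6 and 2 of the 10 genes and 1723, 3073 and 2748 genes in all were called in vutiglabridin minus vehicle, semaglutide minus vehicle and vutiglabridin minus semaglutide, and the gene gained was Pon1 in semaglutide minus vehicle (limma adjusted p = 0.0453). Depth was lowest in vutiglabridin replicate 7, and it limits genes with low FPKM values here, such as Apoc2 and Abcg1, most.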
